A study of Homo sapiens with 3 samples.

Results

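Cells of the acute leukaemia line MV-4-11 were treated for 1 day with FL-Fc-DM1 at 0.5 nM or at 1.5 nM, and the polyadenylated RNA of the 1.5 nM library was compared here with that of the 0.5 nM library. The comparison uses 2 of the 3 libraries of the series, and the third, from cells kept for 1 day without the conjugate, is given beside them as the untreated level. All 3 groups are the same line, grown in IMDM with fetal bovine serum, and each group is 1 library. The labels give the genotype as wild type, and the line itself is known for a rearranged KMT2A gene and for an internal tandem duplication in FLT3, shared by every group. Of the 20332 genes in the table, 11322 averaged at least 1 count per 1000000 counts (CPM) over the 3 libraries and were analysed. The treated columns are numbered and carry no dose. Number 1 was read as 0.5 nM and number 2 as 1.5 nM, and every direction given here would be exchanged if they stood the other way round.

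FL-Fc-DM1 reads, by its name, as the ligand of the receptor FLT3 joined to an antibody Fc part and to DM1, a maytansinoid. Maytansinoids bind tubulin, stop microtubules from growing and hold dividing cells in mitosis. Conjugates of this kind are taken up with their receptor and release the drug in lysosomes. Cells that fail to divide can stabilise p53, a transcription factor whose targets halt the cell cycle. NRF2 and NF-kB are transcription factors that act on genes of the oxidative stress response and of inflammation. No source used here says why these doses were chosen.

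The libraries held 22329953 estimated counts in the untreated, 16427206 in the 0.5 nM and 16864857 in the 1.5 nM group, and mitochondrially encoded genes took 5.07% to 5.36% of them. Counts are rounded to whole numbers and not scaled, so the deeper untreated library has higher counts at an equal level, whereas CPM and ratios are scaled for depth. Where 3 values follow each other, they are those of the untreated, the 0.5 nM and the 1.5 nM library. With 1 library per dose there is no spread between replicates and no test, and the ratios compare these libraries. Each log2 ratio is the 1.5 nM level over the 0.5 nM level, and the brackets after it hold its exact 95% interval, which covers counting error only. The genes that define the line were present in every library. FLT3 stood at 506 CPM without the conjugate, 489 CPM at 0.5 nM and 448 CPM at 1.5 nM, a ratio of -0.13 [-0.17, -0.08]. HOXA9 had -0.38, MEIS1 -0.17, CD33 0.11, MPO 0.31 and PTPRC -0.07. Of the markers of other lineages, 3 of 21 epithelial and 6 of 16 stromal and endothelial genes had 0 counts in all 3 libraries. So did 7 of 18 B and T lymphocyte and 13 of 21 megakaryocyte and erythroid genes, and EPCAM, CD3D, GATA1 and HBB were among them. The minimum of 1 CPM was reached by 6, 2, 2 and 5 genes of these lists. Among those, CD4 stood at 269, 266 and 323 CPM, IGLL1 at 19.8, 9.14 and 9.06, and NFE2 at 7.99, 8.05 and 8.59. In RNA from a whole culture, fewer cells of a state and less RNA per cell cannot be told apart.

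Most genes differed little between the doses. The median log2 ratio over the 11322 genes was 0.00, and the central 90% of genes lay between -0.39 and 0.42. At the 2-fold threshold, 54 genes (0.477%) were higher and 56 (0.495%) lower at 1.5 nM. At 1.5-fold, 269 (2.38%) were higher and 223 (1.97%) lower. The genes past 2-fold were faint, with a median of 1.77 CPM over the treated libraries for the higher and 1.70 CPM for the lower ones, against 35.02 CPM over all genes. None of the 4518 genes that averaged 50 CPM or above reached 2-fold. Counts that were not whole numbers, taken as a sign of reads divided between genes, were found for 22 of the 54 higher and 20 of the 56 lower genes. Over all 11322 genes, 2510 (22.2%) had such counts. Such genes are called uncertain throughout.

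**Figure D1:**
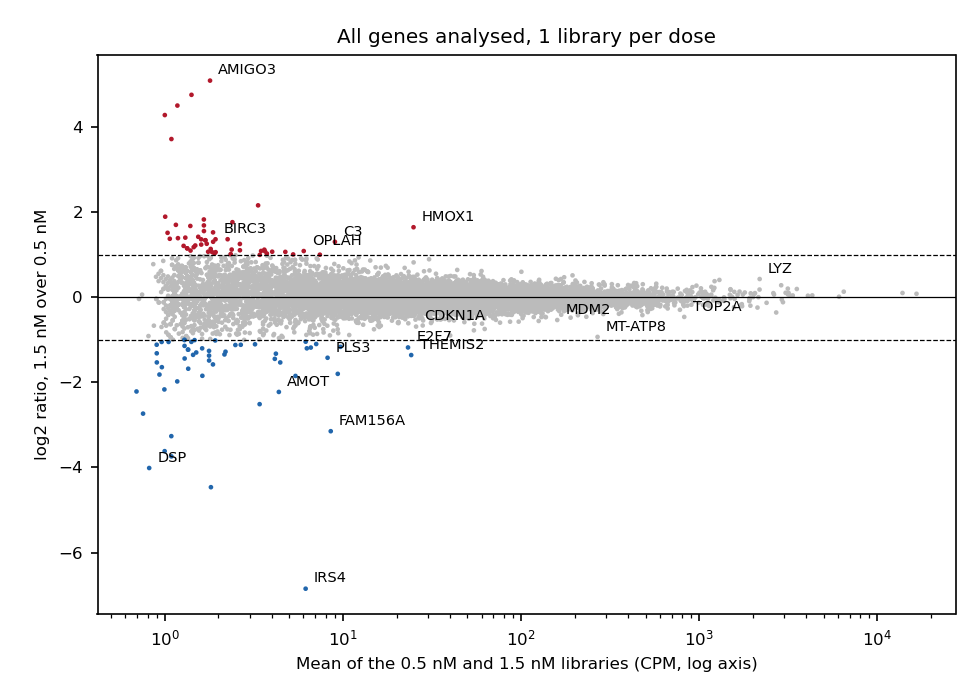
Each point is 1 of the 11322 genes analysed, with its mean CPM over the treated libraries on a log axis and its log2 ratio of the 1.5 nM over the 0.5 nM library. The dashed lines mark 2-fold, red points are the 54 genes above and blue points the 56 genes below them, and HMOX1 (1.65), THEMIS2 (-1.36) and E2F7 (-1.18) are among the few past the lines, 4 higher and 13 lower, with a mean of 5 or more CPM.

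HMOX1 (ENSG00000100292), which encodes the haem-degrading enzyme haem oxygenase 1, had the highest lower bound of the interval among the genes with whole counts that were 2-fold higher at 1.5 nM. RHBDL1, DHRS2, SLC24A4 and MYH15 had higher ratios from fewer counts. HMOX1 had 104 counts without the conjugate, 198 at 0.5 nM and 643 at 1.5 nM, or 4.72, 11.99 and 37.8 CPM, a ratio of 1.65 [1.43, 1.90] between the doses. The dose step followed a ratio of 1.33 for 0.5 nM over the untreated cells. C3 (ENSG00000125730), the central complement component, had 52, 85 and 219 counts and a ratio of 1.31 [0.96, 1.70]. Both genes were already above the untreated level at 0.5 nM. DHRS2, which encodes a short-chain dehydrogenase, had 16, 11 and 45 counts and 1.83 [1.02, 3.09]. OPLAH, whose product 5-oxoprolinase recycles glutamate in the glutathione cycle, had 105, 63 and 140 counts and 1.09 [0.67, 1.56]. In DHRS2 and OPLAH the CPM at 0.5 nM was the lowest of the 3.

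The other genes named by size as higher stood at 0.363 to 3.45 CPM in the 0.5 nM library. They include BIRC3, an inhibitor of apoptosis and NF-kB target, with 8, 17 and 48 counts and a ratio of 1.37 [0.63, 2.35]. PDE4B, a cyclic AMP phosphodiesterase, went from 13 counts at 0.5 nM to 43 at 1.5 nM with 1.56 [0.76, 2.70]. GPR84, a receptor of myeloid cells for medium-chain fatty acids, went from 13 to 39 counts with 1.42 [0.61, 2.57]. All of these had their lowest CPM without the conjugate. RHBDL1 (1.90), SLC24A4 (1.71), MYH15 (1.68), CIMAP1B (1.37), UNC5B (1.26), ABHD4 (1.12), RHPN1 (1.07) and TSGA10 (1.01) complete the genes named by size as higher. For all of these but MYH15 and TSGA10 the CPM at 0.5 nM was the lowest of the 3. RHBDL1 stood at 1.36, 0.363 and 1.65 CPM and SLC24A4 at 1.09, 0.484 and 1.82 CPM.

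Among the lower genes, several were almost without counts at 1.5 nM. IRS4 (ENSG00000133124), an adaptor of the insulin receptor, had 224 counts without the conjugate, 204 at 0.5 nM and 0 at 1.5 nM, which is at least 70.0-fold lower than at 0.5 nM when 0 is set to the floor of 3 counts per library. DSP, a desmosome protein of epithelial cells, had 32, 27 and 0 counts and was at least 9.26-fold lower. ENAH, a regulator of actin filaments, had 60, 59 and 1 counts, a ratio of -4.46 [-11.25, -3.39], which ran from -5.39 to -3.55 with prior counts of 0.5 and 5. SLIT2, NCKAP1 and LPL were also nearly missing, with 35, 32 and 23 counts at 0.5 nM and 1, 1 and 2 at 1.5 nM. Every one of them had 28 or more counts without the conjugate.

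Over the whole table, 67 genes with whole counts had at most 2 of them at 1.5 nM but at least 10 at 0.5 nM, and 12 had the opposite. Of the 67, 50 also had 10 or more counts without the conjugate. Only 6 of the 67 reached the minimum level, and all 6 are named above. Of 21 epithelial markers 6 were measured, and apart from DSP the 5 others, CLDN7, OCLN, KRT18, KRT8 and JUP, had ratios of 0.07 to 0.53. The counting interval lay wholly above 0 for 0 of these 5. The 15 below the minimum level summed to 82 counts without the conjugate, 59 at 0.5 nM and 14 at 1.5 nM. Among these the desmosome gene DSG2 had 21, 18 and 0 counts and the tight junction gene TJP1 had 7, 12 and 0. All 21 together summed to 16.1, 17.1 and 14.9 CPM. Among the nearly missing genes that are not on the list, the laminin chain gene LAMA3 had 14, 14 and 1 counts, the receptor gene MET 6, 12 and 2, and the actin-binding protein gene CALD1 21, 17 and 0. Of 16 stromal and endothelial markers 2 were measured, PECAM1 with 0.30 and COL6A1 with 0.76. The 14 others summed to 14 counts without the conjugate, 39 at 0.5 nM and 29 at 1.5 nM. The part of other cells in the nearly missing genes was not tested.

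Further lower genes were not nearly missing at 1.5 nM. THEMIS2 (ENSG00000130775), a signalling protein of B cells and macrophages, had 679, 575 and 230 counts, a ratio of -1.36 [-1.59, -1.14]. E2F7 (ENSG00000165891), a repressor of cell cycle genes, had 654, 532 and 241 counts and -1.18 [-1.41, -0.96]. AMOT, a protein of cell junctions that binds the Hippo effector YAP, had 157, 120 and 25 counts and -2.22 [-2.99, -1.67]. At 0.5 nM their ratios to the untreated library were 0.18, 0.12 and 0.03, so the difference lay between the doses. PLS3, an actin-bundling protein, went from 198 to 75 counts with -1.42 [-1.85, -1.05]. FAM111B, a trypsin-like protease, went from 222 to 101 counts with -1.16 [-1.53, -0.83]. DHRS9, a retinol dehydrogenase, had 69, 100 and 40 counts and -1.32 [-1.93, -0.82], after a ratio of 0.93 for 0.5 nM over the untreated library. TAS2R20 (-2.16), LRRC1 (-1.68) and PGAP1 (-1.20) complete the genes named by size as lower. The deposited TPM values gave 0.02 for PGAP1, the opposite sign.

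**Figure D2:**
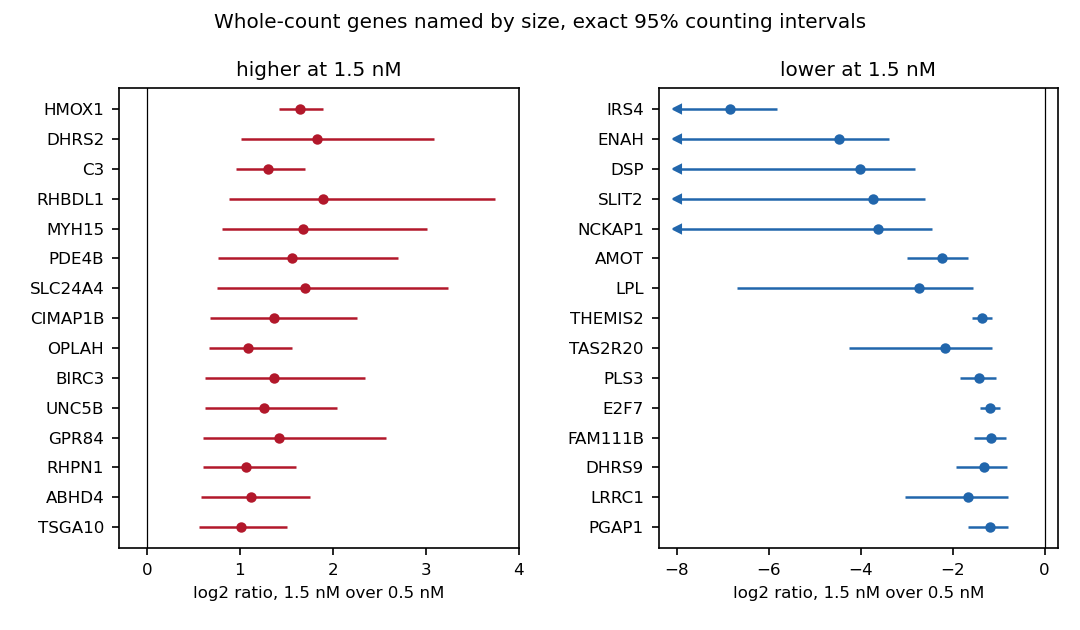
Points are log2 ratios of the 1.5 nM over the 0.5 nM library for the 15 genes in each direction with whole counts named by size, and lines are exact 95% intervals for counting error. An arrowhead marks an interval that runs beyond the axis, as for IRS4, DSP, ENAH, SLIT2 and NCKAP1, the points of these genes depend on the prior count of 2, and the narrow intervals belong to HMOX1, THEMIS2 and E2F7.

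Uncertain genes gave some of the most extreme ratios. AMIGO3 had 51 counts without the conjugate, 0 at 0.5 nM and 61 at 1.5 nM, at least 19.8-fold higher than at 0.5 nM at the floor of 3 counts. EIF3CL, at least 15.5-fold higher, and the read-through gene CORO7-PAM16, at least 11.0-fold higher, had the same form. In these genes the 0.5 nM library alone was at 0 after rounding. FAM156A had 170, 255 and 28 counts and a ratio of -3.15 [-3.85, -2.66], and SPDYE2 and its near-identical copy SPDYE2B had -1.85 and 2.16. The part of divided reads in these ratios was not tested.

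Among abundant genes the differences were smaller. Of the 4518 genes that averaged 50 CPM or above, 2 passed 1.5-fold upwards and 6 downwards. EEF1A2, a translation elongation factor, went from 47.3 CPM at 0.5 nM to 72.7 CPM at 1.5 nM with 0.62 [0.49, 0.75], and the matrix metalloprotease gene MMP2 from 79.7 to 121 CPM with 0.60 [0.50, 0.70]. On the lower side stood FBXO5 with -0.78 [-0.92, -0.64], WDR76 with -0.74 [-0.87, -0.62], BRIP1 with -0.62, NREP with -0.59, the uncertain NR2C2 with -0.62 and MT-ATP8 with -0.93. FBXO5 encodes EMI1, an inhibitor of the anaphase-promoting complex, and BRIP1 a DNA helicase that works with BRCA1. MT-ATP8 overlaps MT-ATP6 in the mitochondrial genome, MT-ATP6 had 0.07, and the part of their shared reads in these values was not tested.

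p53 targets stood lower at 1.5 nM than at 0.5 nM. Of the 31 measured of 33 listed, 24 lay below 0 and 7 above, against 49.9% of all genes below 0. The 95% counting interval lay wholly below 0 for 16 and wholly above 0 for 2, where over all genes 19.3% lay below and 17.5% above. The list's median was -0.24, beside 0.00 for all genes. Set against the untreated library, the same list had medians of 0.22 at 0.5 nM and 0.04 at 1.5 nM. The arrest genes had a median of -0.34 over 10 members, the repair and metabolism genes -0.29 with 8 of 8 below 0, and the death genes -0.07 with 4 of 9 above 0.

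CDKN1A (ENSG00000124762), the gene of the cell cycle inhibitor p21, had 258 counts without the conjugate, 525 at 0.5 nM and 335 at 1.5 nM, a ratio of -0.69 [-0.89, -0.49] between the doses. MDM2, the ubiquitin ligase that degrades p53, stood at 128, 189 and 131 CPM, a ratio of -0.53 [-0.61, -0.45]. SESN1, a stress protein that restrains mTORC1, stood at 15.7, 24.5 and 16.2 CPM with -0.60 [-0.83, -0.38]. Set against the untreated library, MDM2 had 0.02 and SESN1 0.04 at 1.5 nM, while CDKN1A had 0.75 [0.51, 0.99]. E2F7, which is also listed as a p53 target, had the lowest ratio of the list. Some members lay above 0: BTG2, an antiproliferative gene, stood at 10.7, 21.98 and 26.8 CPM with 0.28 [0.08, 0.49], and the pore-forming death gene BAX had 0.09 [-0.05, 0.22].

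The BCL2 family and caspases went both ways, with 13 of 29 measured members above 0 and 16 below and a median of -0.09. The interval lay below 0 for 12 and above 0 for 5, against 19.3% and 17.5% of all genes. The death genes BCL2L11 (-0.30 [-0.44, -0.16]), CASP2 (-0.29 [-0.39, -0.19]) and PMAIP1 (-0.27 [-0.48, -0.06]) were lower at 1.5 nM. CASP2 encodes the caspase of the PIDDosome, which responds to extra centrosomes. BAD, an uncertain gene, had 0.38 [-0.02, 0.80].

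**Figure D3:**
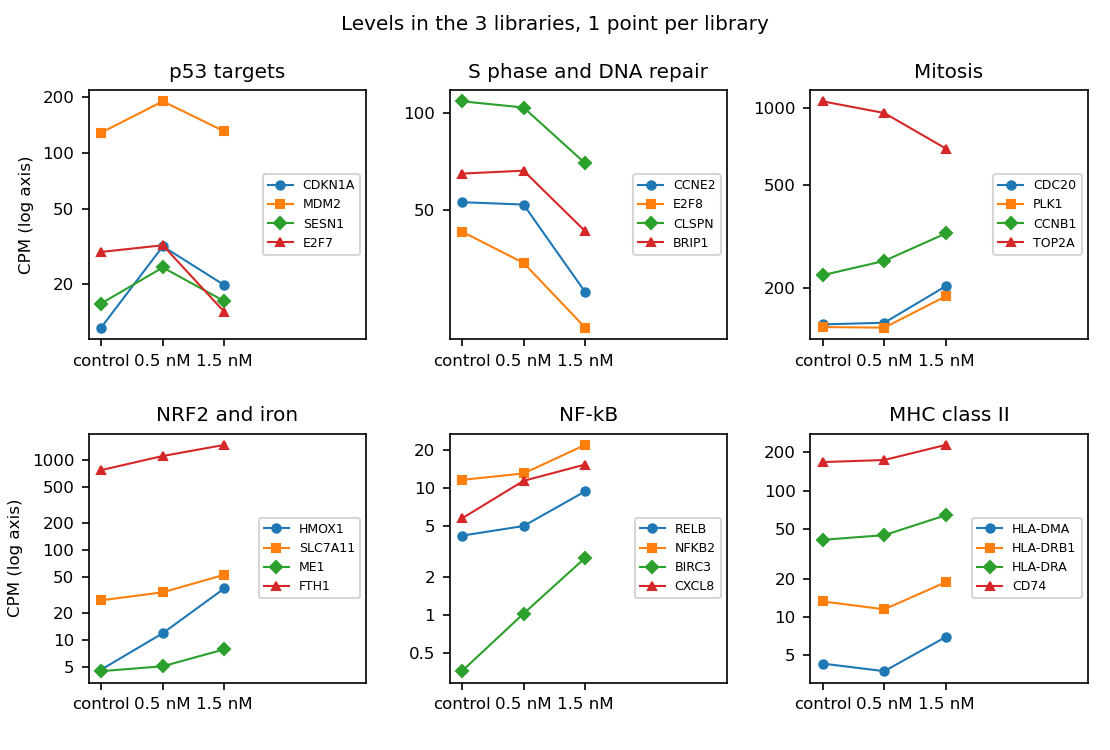
CPM on log axes in the untreated (control), 0.5 nM and 1.5 nM libraries for 4 genes of each of 6 groups, with 1 point per library and no error shown. CDKN1A, MDM2 and SESN1 peak at 0.5 nM, CCNE2, CLSPN and BRIP1 are lower at 1.5 nM than in the other libraries, and HMOX1, BIRC3 and the MHC class II genes are highest at 1.5 nM.

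Genes of DNA replication stood lower at 1.5 nM almost throughout. Of the 49 measured S phase genes, 45 lay below 0 and 4 above, with a median of -0.23, and the counting interval lay below 0 for 41 and above 0 for 0. This list is abundant, and 29.7% of the genes that averaged 50 CPM or above had an interval below 0. None of its members reached 2-fold. The regulators had the lowest median, -0.32 over 9 members, followed by nucleotide supply with -0.27 over 6, origin licensing with -0.22 over 12 and origin firing and the fork with -0.19 over 22.

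CCNE2, the cyclin that drives cells into S phase and an uncertain gene, stood at 52.95, 52.1 and 27.9 CPM, a ratio of -0.90 [-1.06, -0.73]. Its relative CCNE1 stood at 38.1, 33.5 and 22.9 CPM with -0.54 [-0.74, -0.36]. E2F8, a repressor related to E2F7, stood at 43.0, 34.4 and 21.7 CPM with -0.66 [-0.86, -0.47]. CLSPN, the checkpoint adaptor claspin, stood at 108, 104 and 69.8 CPM with -0.57 [-0.68, -0.46]. CCNE2 and CLSPN were at the untreated level at 0.5 nM. PCNA, the sliding clamp of the DNA polymerases, stood at 448, 411 and 322 CPM with -0.35 [-0.40, -0.30], and the ribonucleotide reductase subunit RRM2 at 426, 401 and 307 CPM with -0.39 [-0.44, -0.33]. CDT1, a licensing factor, was among the few above 0, with 0.05 [-0.08, 0.19].

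The PCNA promoter is shown as an example of the binding motif of E2F factors, which act on S phase genes. Bases are from RefSeq, build GRCh38.p14, for the 250 bases before the gene start, written 5′ to 3′ on the strand of the gene, with the motif in capitals. The motif was searched as TTTCCCGC or TTTGGCGC on both strands. It was found in 17 of the 41 S phase genes with a promoter in the table (41.5%) and in 375 of all 9208 analysed genes with one (4.07%). PCNA was chosen after its values were seen, since none of the 4 S phase genes named by the rule holds the motif.
PCNA (chr20:5126623-5126872, minus strand): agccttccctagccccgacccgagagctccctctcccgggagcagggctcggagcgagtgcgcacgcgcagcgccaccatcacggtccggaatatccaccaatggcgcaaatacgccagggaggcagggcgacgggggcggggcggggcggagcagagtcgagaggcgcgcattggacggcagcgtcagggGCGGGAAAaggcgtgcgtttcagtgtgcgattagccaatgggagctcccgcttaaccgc
The motif lies 59 bases before the start and reads on the opposite strand. S phase genes with the motif had a median of -0.19 and those without it -0.24.

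DNA repair genes showed the same direction, with 32 of 35 below 0 and a median of -0.21. The interval lay below 0 for 28 and above 0 for 0. It lay below 0 for 19.3% of all genes and for 29.7% of those that averaged 50 CPM or above. BRIP1 stood at 64.9, 66.2 and 43.1 CPM, a ratio of -0.62 [-0.76, -0.48]. TOPBP1, an activator of the checkpoint kinase ATR, stood at 290, 269 and 196 CPM with -0.46 [-0.52, -0.39]. BARD1, the partner of BRCA1, had -0.40 [-0.55, -0.26], and the uncertain RAD54B had -0.44. As in the S phase genes named above, apart from CDT1, the 1.5 nM library was the lowest of the 3 for each. The replication-dependent histone genes, whose messages largely lack poly(A) tails, were measured for 10 of 46, with a median of 0.15. The highest ratio of that list belonged to H2BC12, with 102, 117 and 201 counts and 0.73 [0.40, 1.08].

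Mitosis genes went both ways. Of 48 measured genes, 23 lay above and 25 below 0, with a median of -0.01. The interval lay above 0 for 15 and below 0 for 16. Among genes that averaged 50 CPM or above, 22.1% had an interval above 0 and 29.7% below. The entry kinases and cyclins had 8 of 12 above 0 and a median of 0.12. Genes of mitotic exit and of chromosome structure had 5 of 7 below 0 and a median of -0.18. The kinetochore and checkpoint genes had -0.07 and the spindle and cytokinesis genes -0.01. With the trend of ratios with transcript GC content removed, the medians were 0.09 for entry, -0.07 for exit, 0.02 for the kinetochore and 0.09 for the spindle genes, so the latter pair changed sign.

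CDC20, the activator of the anaphase-promoting complex, stood at 144, 146 and 203 CPM, a ratio of 0.47 [0.40, 0.55]. PLK1, a kinase of mitotic entry, stood at 141, 140 and 185 CPM with 0.41 [0.33, 0.48], and CCNB1, the mitotic cyclin B1, at 224, 254 and 325 CPM with 0.36 [0.30, 0.41]. NEK2, a centrosome kinase, had 0.40 [0.27, 0.54] and AURKA, a spindle kinase, 0.34 [0.26, 0.42]. CDC20, PLK1 and NEK2 were level between the untreated and the 0.5 nM library and higher at 1.5 nM. In the other direction, TOP2A, which encodes topoisomerase II alpha, stood at 1059.8, 955 and 694 CPM with -0.46 [-0.49, -0.42]. MKI67, the proliferation antigen Ki-67, stood at 777, 726 and 606 CPM with -0.26 [-0.30, -0.22]. CDK1, the kinase partner of cyclin B, had -0.32 [-0.40, -0.25] against the 0.36 of CCNB1. The uncertain kinetochore gene SPC25 had -0.45 [-0.66, -0.24].

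The promoters of 4 mitosis genes are shown because they share a motif and lie on opposite sides of 0. The cell cycle homology region, searched as TTTGAA on both strands and marked in capitals, is bound by repressor and activator complexes of the cell cycle. It was found in 23 of 42 mitosis genes with a promoter (54.8%) and in 12.01% of all analysed genes with one. Bases are from RefSeq GRCh38.p14, before the gene start, 5′ to 3′ on the strand of the gene.
CDC20 (chr1:43358731-43358980, plus strand): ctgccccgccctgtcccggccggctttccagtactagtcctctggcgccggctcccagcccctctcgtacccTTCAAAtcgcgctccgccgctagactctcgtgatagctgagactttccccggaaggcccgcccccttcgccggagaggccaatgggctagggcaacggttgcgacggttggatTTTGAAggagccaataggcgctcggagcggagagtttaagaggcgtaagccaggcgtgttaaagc
PLK1 (chr16:23678639-23678888, plus strand): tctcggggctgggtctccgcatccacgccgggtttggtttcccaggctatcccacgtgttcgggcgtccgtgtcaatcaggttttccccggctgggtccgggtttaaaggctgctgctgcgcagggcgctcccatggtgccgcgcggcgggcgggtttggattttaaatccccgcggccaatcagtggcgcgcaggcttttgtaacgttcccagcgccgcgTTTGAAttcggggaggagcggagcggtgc
TOP2A (chr17:40417897-40418146, minus strand): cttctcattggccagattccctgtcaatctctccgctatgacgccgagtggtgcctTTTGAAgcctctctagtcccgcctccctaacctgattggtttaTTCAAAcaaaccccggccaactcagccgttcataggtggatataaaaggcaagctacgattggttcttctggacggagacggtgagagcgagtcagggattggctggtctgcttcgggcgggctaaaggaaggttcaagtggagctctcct
MKI67 (chr10:128126424-128126673, minus strand): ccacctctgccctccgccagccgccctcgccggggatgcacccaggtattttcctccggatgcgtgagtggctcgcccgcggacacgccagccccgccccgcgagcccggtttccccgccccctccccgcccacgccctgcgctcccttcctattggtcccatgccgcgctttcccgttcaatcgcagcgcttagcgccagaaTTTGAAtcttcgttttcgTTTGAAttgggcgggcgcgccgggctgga
CDC20 and PLK1 were higher and TOP2A and MKI67 lower at 1.5 nM, and all 4 hold the motif. SPC25, which also holds it, is uncertain and is not printed. Mitosis genes with it had a median of -0.08 and those without it -0.01.

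Tubulin genes, whose products the drug binds, had a median of -0.08 over 14 measured members, with 9 below 0. Of the 14, 11 were uncertain, against 22.2% of all genes, among them 5 of 5 alpha and 4 of 5 beta tubulin genes. TUBB (ENSG00000196230), the main beta tubulin gene of dividing cells, stood at 2366, 1824 and 1604 CPM, a ratio of -0.19 [-0.21, -0.16]. TUBA1B, an uncertain alpha tubulin gene, stood at 2092, 1695 and 1444 CPM with -0.23 [-0.26, -0.21]. Both were lowest at 1.5 nM. The list held 1 gene past 2-fold in each direction, both faint and uncertain beta tubulin genes, TUBB3 with 24, 15 and 42 counts and 1.34 [0.56, 2.40] and TUBB1 with 24, 36 and 14 counts and -1.30 [-2.41, -0.48]. TTC5, which starts the decay of tubulin messages when free tubulin is abundant, went from 22.2 to 17.1 CPM with -0.37 [-0.60, -0.15]. Genes for tubulin folding had no common direction, with 10 of 20 above 0 in the list that also holds TTC5.

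**Figure D4:**
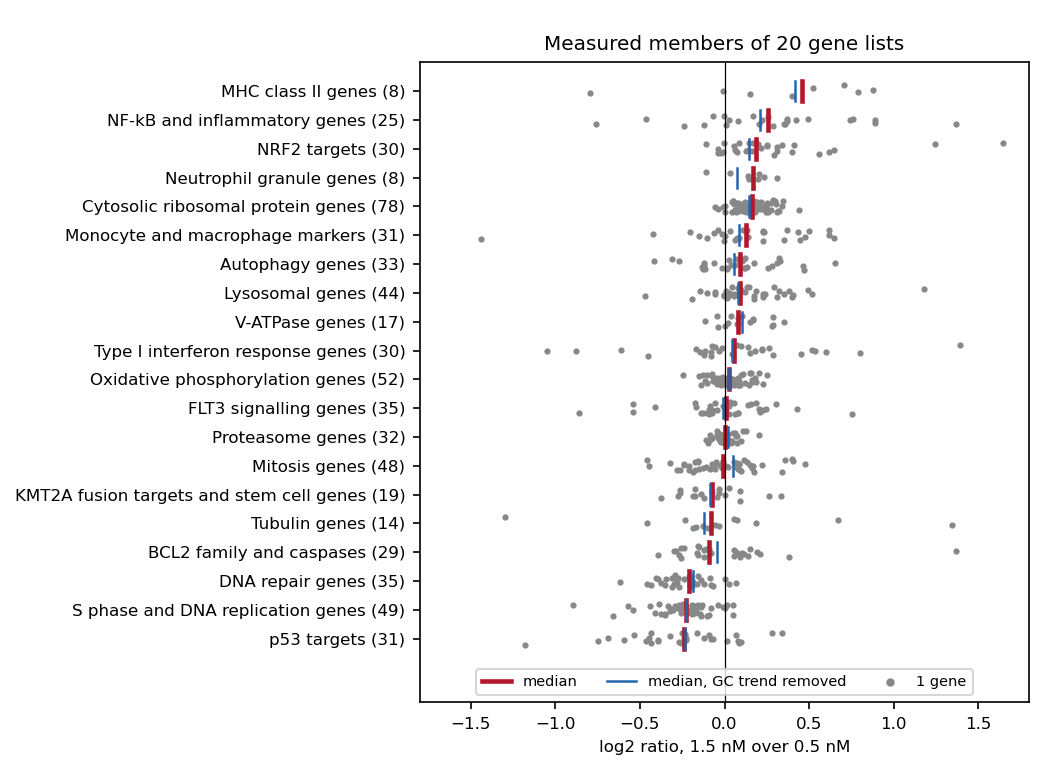
Grey points are the log2 ratios of the 1.5 nM over the 0.5 nM library for the measured members of 20 lists, with the number measured in brackets. Red bars are list medians and blue bars medians with the transcript GC trend removed, running from -0.24 for the p53 targets to 0.46 for the MHC class II genes.

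NRF2 targets stood higher at 1.5 nM. Of 30 measured, 24 lay above 0 and 6 below, against 50.1% of all genes above 0, with a median of 0.18. The interval lay above 0 for 18 and below 0 for 0, against 17.5% and 19.3% of all genes. The haem, iron and quinone genes, 4 of 4 above 0, had a median of 0.33, and the genes that supply NADPH 0.27 with 5 of 6 above 0. The thioredoxin genes, with 0.09, and the glutathione and cystine genes, with 0.08, were closer to 0.

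After HMOX1, SLC7A11, the cystine transporter, had the next highest ratio of the members named by the rule, with 27.8, 34.1 and 53.5 CPM and 0.65 [0.49, 0.80]. ME1, the cytosolic malic enzyme, went from 85 counts at 0.5 nM to 135 at 1.5 nM with 0.62 [0.22, 1.04]. FTH1, the ferritin heavy chain and an uncertain gene, stood at 777, 1115 and 1482 CPM with 0.41 [0.38, 0.44]. HMOX1, SLC7A11 and FTH1 were also above the untreated level at 0.5 nM. GCLM, a subunit of the enzyme that starts glutathione synthesis, did not differ beyond counting error, with -0.01 [-0.11, 0.10]. Genes of the glutathione cycle were split, with 11 of 24 above 0. Among those named, OPLAH had 1.09 and CHAC2, a glutathione-degrading enzyme, -0.42 [-0.75, -0.10].

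The ME1 promoter is shown as the named NRF2 target that holds the core of the antioxidant response element, the site of NRF2. The core was searched as TGACNNNGC on both strands and is in capitals. It was found in 8 of 23 NRF2 targets with a promoter (34.8%) and in 15.9% of all analysed genes with one. HMOX1 had no match in its 250 bases. The sequence is from RefSeq GRCh38.p14.
ME1 (chr6:83431052-83431301, minus strand): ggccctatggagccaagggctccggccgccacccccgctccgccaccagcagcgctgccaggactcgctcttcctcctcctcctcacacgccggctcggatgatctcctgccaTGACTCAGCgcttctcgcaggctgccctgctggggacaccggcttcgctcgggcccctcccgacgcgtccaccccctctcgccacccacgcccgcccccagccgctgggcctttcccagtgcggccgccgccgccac
The core lies 137 bases before the start. Targets with it had a median of 0.13 and those without it 0.16.

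NF-kB and inflammatory genes also stood higher, with 19 of 25 measured members above 0 and a median of 0.25. The interval lay above 0 for 11 and below 0 for 2, where over all genes 17.5% lay above and 19.3% below. Among the subunits and feedback genes 13 of 14 lay above 0, with a median of 0.32. RELB, a subunit of the noncanonical pathway, stood at 4.22, 5.03 and 9.41 CPM, a ratio of 0.89 [0.51, 1.31]. NFKB2, which encodes its partner p100, stood at 11.6, 13.02 and 21.8 CPM with 0.74 [0.50, 0.99]. Both were close to the untreated level at 0.5 nM and highest at 1.5 nM. NFKB1 had 0.37 [0.24, 0.50], RELA, the main canonical subunit, 0.01 [-0.12, 0.14], and REL, an uncertain gene, -0.24 [-0.36, -0.12]. CXCL8, the neutrophil chemokine, stood at 5.76, 11.4 and 15.3 CPM with 0.42 [0.15, 0.70]. ICAM1, an adhesion receptor, had 51, 70 and 123 counts and 0.76 [0.34, 1.22]. The adhesion and other genes of the list, ICAM1 among them, were split, with 3 of 6 above 0 and a median of -0.02. TNF, with 112 and 115 counts at the doses, had 0.00 [-0.39, 0.39].

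The promoters of NFKB2 and BIRC3 are shown because both genes were higher at 1.5 nM and both hold a kappa B motif, the site of NF-kB. It was searched on both strands as GGG, any 3 bases and TTCC, and is in capitals. It was found in 10 of 21 genes of the list with a promoter (47.6%) and in 8.94% of all analysed genes with one, and the bases are from RefSeq GRCh38.p14.
NFKB2 (chr10:102394328-102394577, plus strand): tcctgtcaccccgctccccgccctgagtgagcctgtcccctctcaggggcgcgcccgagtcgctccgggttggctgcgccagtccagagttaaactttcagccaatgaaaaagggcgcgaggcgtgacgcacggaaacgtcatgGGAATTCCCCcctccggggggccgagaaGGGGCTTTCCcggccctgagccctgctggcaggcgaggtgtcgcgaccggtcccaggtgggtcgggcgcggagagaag
BIRC3 (chr11:102317234-102317483, plus strand): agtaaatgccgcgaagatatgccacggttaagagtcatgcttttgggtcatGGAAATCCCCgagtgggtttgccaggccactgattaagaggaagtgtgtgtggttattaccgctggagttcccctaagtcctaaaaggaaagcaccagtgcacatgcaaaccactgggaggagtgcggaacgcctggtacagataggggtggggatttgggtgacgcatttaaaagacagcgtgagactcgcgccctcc
NFKB2 holds the motif at 106 and 78 bases before the start and BIRC3 at 199. Genes of the list with the motif had a median of 0.23 and those without it 0.22.

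MHC class II genes, which present peptides to CD4 T cells, were measured for 8 of 13, with a median of 0.46 and 6 members above 0. The interval lay above 0 for 5 and below 0 for 0, against 17.5% and 19.3% of all genes. HLA-DMA, a peptide exchange factor, had 95, 62 and 119 counts and a ratio of 0.88 [0.44, 1.37]. HLA-DRA stood at 40.9, 44.5 and 64.0 CPM with 0.52 [0.39, 0.66], and CD74, the invariant chain, at 168, 174 and 230 CPM with 0.40 [0.33, 0.47]. HLA-DRB1, an uncertain gene with near-identical relatives, had 0.71 [0.45, 0.98]. All 4 were highest at 1.5 nM. CIITA, the transactivator of these genes and uncertain here, did not differ beyond counting error, at 35.7 and 35.5 CPM in the treated libraries and -0.01 [-0.17, 0.16]. HLA-DOB, also uncertain, had -0.80 from 30 and 17 counts.

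Of the complement genes, 9 of 11 measured lay above 0 with a median of 0.37. The interval lay above 0 for 4, against 17.5% of all genes. CFP, the alternative pathway stabiliser properdin, had 51 and 78 counts at the doses and 0.56 [0.04, 1.11], and the uncertain C5 0.27 [0.08, 0.47]. Monocyte and macrophage markers had 22 of 31 above 0 and a median of 0.13. Their interval lay above 0 for 12 and below 0 for 1, against 17.5% and 19.3% of all genes. LYZ, lysozyme, stood at 2022, 1861 and 2510.1 CPM with 0.43 [0.41, 0.45]. CEBPB, a myeloid transcription factor, stood at 12.5, 11.3 and 15.5 CPM with 0.45 [0.17, 0.73], and S100A8, a calcium-binding protein of monocytes and neutrophils, had 0.48 [0.07, 0.91]. For LYZ, CEBPB and S100A8 the 0.5 nM library was the lowest. The lowest ratio among the monocyte and macrophage markers was -1.44, from the 1 member that was 2-fold lower. FCGRT, the neonatal Fc receptor, went from 5.45 to 9.12 CPM with 0.73 [0.36, 1.13], whereas FCGR1A, a high-affinity Fc receptor, had -0.06 [-0.24, 0.11].

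Lysosomal genes were slightly higher, with 35 of 44 above 0 and a median of 0.09. The interval lay above 0 for 20 and below 0 for 0, against 17.5% and 19.3% of all genes. PSAP, the precursor of the saposins, stood at 156, 160 and 229 CPM with 0.52 [0.45, 0.59]. GAA, the lysosomal alpha-glucosidase, had 0.49 [0.33, 0.66] and the calcium channel gene MCOLN1 0.40 [0.14, 0.66]. The V-ATPase, which acidifies lysosomes, had 14 of 17 subunit genes above 0 and a median of 0.08, with TCIRG1 at 0.35 [0.23, 0.47]. Autophagy genes had 23 of 33 above 0 and a median of 0.09. ULK1, the kinase that starts autophagy, stood at 12.3, 10.1 and 15.9 CPM with 0.65 [0.38, 0.95], and OPTN, a cargo receptor, had 0.47 [0.23, 0.72]. PSAP and ULK1 were close to or below the untreated level at 0.5 nM. Unfolded protein response genes had a like median of 0.10, with 14 of 20 above 0 and an interval above 0 for 11 and below 0 for 3.

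Cytosolic ribosomal protein genes were nearly uniform, with 75 of 78 above 0, a median of 0.16 and an interval above 0 for 69, where 22.1% of the genes that averaged 50 CPM or above had one. RPS29 stood at 167, 133 and 181 CPM with 0.44 [0.36, 0.52], and RPL28 at 413, 381 and 482 CPM with 0.34 [0.29, 0.39]. Against the untreated library the list had medians of -0.15 at 0.5 nM and 0.00 at 1.5 nM, so the 1.5 nM levels lay near the untreated ones. The median between the doses was 0.07 when the trend with relative length was removed. Spliceosome and hnRNP genes went the other way, with 26 of 41 below 0 and a median of -0.06, led by the uncertain HNRNPU with -0.36 [-0.37, -0.34].

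Ratios between the doses moved with transcript GC content, which spans all of these lists. The Spearman correlation was 0.39 across the 11252 genes with a GC value, which are not independent of one another. When genes were sorted by GC content into 10 equal groups, the median ratio ran from -0.10 in the lowest group to 0.15 in the highest. With the GC trend removed, the p53 targets had a median of -0.23, the S phase genes -0.23, the DNA repair genes -0.19, the NRF2 targets 0.15, the NF-kB genes 0.21 and the MHC class II genes 0.41. The neutrophil granule genes, 7 of 8 above 0 with AZU1 at 0.23 and ELANE at 0.20, went from 0.17 to 0.07. Among single genes, HMOX1 had 1.52 and CDKN1A -0.80 with the trend removed.

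**Figure D5:**
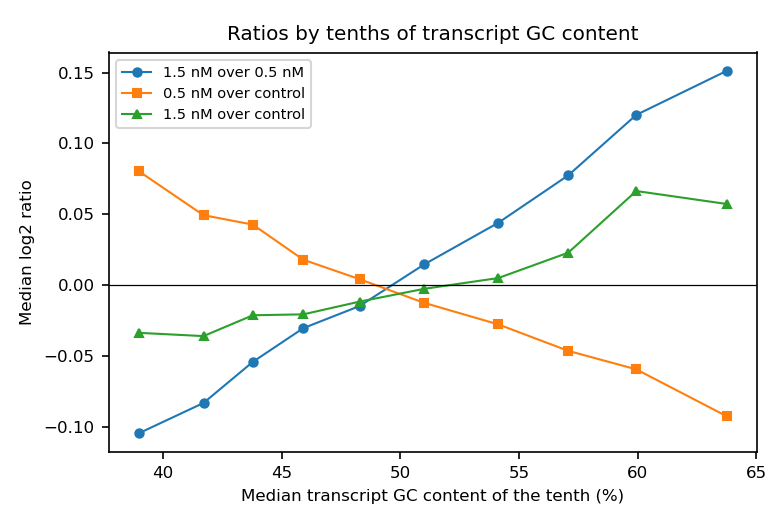
The 11252 genes with a GC value were sorted into 10 equal groups by transcript GC content, and each point is the median log2 ratio of a group, placed at its median GC content in percent, for the 3 pairs of libraries. From the lowest to the highest group, the 1.5 nM over 0.5 nM medians run from -0.10 to 0.15. Those of 0.5 nM over the untreated library run from 0.08 to -0.09, and those of 1.5 nM over it from -0.03 to 0.06. All pairs share libraries with one another.

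Several lists that bear on the target and on stress had medians near 0 while single members differed. FLT3 signalling genes, 18 of 35 above 0, had a median of 0.01. Of these, PIM1, a kinase induced by STAT5, had -0.41 [-0.54, -0.28], the stress kinase gene MAP2K6 -0.86 [-1.27, -0.48] and the receptor gene AXL 0.43 [0.10, 0.77]. KMT2A fusion targets had 13 of 19 below 0 and a median of -0.08, with HOXA9 at -0.38 [-0.51, -0.25] and the adhesion receptor CD44 at 0.33 [0.27, 0.39]. Their interval lay below 0 for 10 and above 0 for 1, where over all genes 19.3% lay below and 17.5% above. Targets of ATF4, the factor of amino acid stress, had a median of -0.04, with the glutamine transporter gene SLC38A2 at -0.48 [-0.55, -0.40]. Heat shock genes had -0.01, with HSPA8 at 0.28 [0.27, 0.30], and oxidative phosphorylation genes 0.02. Type I interferon genes had 0.06 and were divided, with the RNA sensor gene IFIH1 at 0.54 [0.29, 0.80] and the uncertain sensor gene RIGI at -0.88 [-1.30, -0.49].

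MYC, the growth transcription factor, stood at 311, 269 and 265 CPM and had -0.02 [-0.08, 0.04] between the doses. Proteasome genes, 16 of 32 above 0, had a median of 0.00. Among the drug transporters ABCC1, an efflux pump, stood at 23.3, 26.0 and 33.0 CPM with 0.34 [0.16, 0.52]. ABCB1, the pump that carries maytansinoids, had 2, 1 and 0 counts, and no ratio is given.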

How the data were processed

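The authors deposited a table with an estimated count and a TPM value per gene in each of the 3 libraries, 1 library per group. These deposited estimated counts are not normalised, and 12.0% to 12.7% of them were not whole. The TPM values, deposited by the authors and relative to gene length, served as a check. Per the labels' protocols, RNA was enriched with oligo(dT) beads and copied with random primers. The submitters' processing notes name StringTie 1.3.1, HISAT2, edgeR, DESeq2 and fastp 0.18.0. Neither their roles nor the genome build is given in the sources used here. The numbers 0, 1 and 2 in the column names were read as untreated, 0.5 nM and 1.5 nM.

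Counts were rounded to whole numbers and scaled with TMM (edgeR 4.0.16, R 4.3.3), with factors of 0.987, 1.005 and 1.008. Log2 CPM used a prior count of 2, and the expression minimum was a mean of 1 CPM over the 3 libraries. CPM values given are scaled by TMM without the prior. Ratios have exact 95% intervals (Clopper-Pearson, scipy 1.17.1), and a library at 0 was set to the floor of 3 counts, which equals 0.136, 0.182 and 0.177 CPM in the untreated, 0.5 nM and 1.5 nM libraries. Both cover counting error alone, since reads copied by PCR are not independent. No test was run, since 1 library per dose leaves no spread. The script was tested on simulated counts. Transcript GC content came from GENCODE release 29.

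Genes were named by a rule: the 15 whole-count genes in each direction whose interval has the largest bound nearest 0, 5 uncertain genes in each direction, up to 4 members of each list with a mean of 5 or more CPM, and a set of genes of the target, the drug and the cell cycle. Genes with 50 or more CPM past 1.5-fold were added as a group. PCNA, RRM2, CDT1, BTG2, BAX, NEK2, AURKA, CDK1, GCLM, NFKB1, RELA, REL, ICAM1, TNF, CIITA, HLA-DOB, CFP, TUBB1, TUBB3, DSG2, TJP1, LAMA3, MET and CALD1 were chosen after their values were seen, as were the members of other marker lists. The comparison, the 48 lists and the rule were chosen with earlier results of these data known. The alternatives tried were other scalings, prior counts, minimum levels, whole-count genes, TPM values and removal of the GC and length trends.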

Additional observations from a re-analysis of the deposited data

How the results depend on the processing

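No paired analysis was possible because each group has 1 library. Counts of genes past 2-fold, 54 higher and 56 lower, depended on the treatment of faint and uncertain genes. A minimum of 10 counts over both libraries gave 171 higher and 243 lower, a mean of 5 CPM as minimum 4 and 13, whole-count genes alone 32 and 36, and the deposited TPM values, with a pseudocount of 1, 20 and 19. DESeq2, upper-quartile, total-count or treated-library TMM scaling, prior counts of 0.5 and 5, and removal of the GC or length trend gave 44 to 62 higher and 48 to 66 lower. Leaving out the nearly missing genes, an alternative chosen after seeing the data, gave 54 and 50. Of 576 list medians under the 12 other alternatives, 569 stayed within the median lower and upper interval bounds of the list's genes. The sign changed in 34 of the 576, from 16 lists whose own median was at most 0.0921 from 0. The 7 outside the bounds included the AhR axis genes with whole-count genes alone (0.25). The mitochondrially encoded genes lay outside with TPM (0.012), without the GC trend (0.11) and without the length trend (-0.0483, also a change of sign). The neutrophil granule genes (0.0718) and the single measured nuclear retained lncRNA gene (-0.0158) lay outside without the GC trend. The cytosolic ribosomal protein genes did so without the length trend (0.0687). Of 2454 ratios of the named genes, 101 left their interval, and PGAP1 had the opposite sign with the deposited TPM values (0.0200). Signs also changed for the cholesterol synthesis gene DHCR7 (-0.0371) and the drug transporter gene ABCC10 (0.0660) with the TPM values. For PTPRC the sign changed without the GC trend (0.0150). Beyond the construction of each alternative, the cause was not tested. No difference has a replicate behind it, and at 3 or fewer counts a library cannot show a level.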

Other observations

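Genes of cell surface and shape outside the comparisons above also differed between the doses. ITGA6, an integrin that binds laminin, stood at 6.26 CPM without the conjugate, 9.20 CPM at 0.5 nM and 14.7 CPM at 1.5 nM, a log2 ratio of 0.66 [0.37, 0.97] between the doses. FLNA, an actin cross-linking protein, stood at 930, 1060 and 1380.3 CPM with 0.38 [0.35, 0.41], while TPM1, a tropomyosin, had -0.52 [-0.89, -0.16]. The actin and SRF genes as a list had 19 of 28 above 0 and a median of 0.06, or 0.00 with the GC trend removed.

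CYP1B1, a cytochrome P450 and target of the aryl hydrocarbon receptor, stood at 20.8, 51.0 and 66.3 CPM with 0.38 [0.25, 0.51]. The uncertain IL4I1, an amino acid oxidase, had 39, 81 and 169 counts and 1.00 [0.63, 1.42]. IGF1, a growth factor, stood at 5.90, 14.5 and 19.2 CPM with 0.40 [0.16, 0.65]. EPOR, the erythropoietin receptor, stood at 11.5, 11.7 and 6.94 CPM with -0.75 [-1.10, -0.42]. The glycolysis genes had a median of 0.07, or 0.00 with the GC trend removed, and ALDOC, an aldolase, had 0.52 [0.18, 0.87].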
